A study of Rattus norvegicus with 4 samples.

Results

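Cultured rat granulosa cells that had received a control siRNA and forskolin are described here through their transcript levels, gene by gene, on 2 arrays out of the 4 in the series. Both arrays were chosen by their sample titles, which read negative control siRNA. Ovaries of female Sprague Dawley rats aged 27 days supplied the cells, 48 h after PMSG, a gonadotropin that makes follicles grow. They were transfected with 20 nM of the control siRNA (called a universal siRNA control in the labels) and then kept for 48 h in 10 µM forskolin, a plant compound that switches on the cyclase making cAMP. The medium held insulin, transferrin and selenium. The series' design text speaks of separate cultures, but the labels do not say what a replicate number stands for or how many animals were pooled. The other 2 arrays of the series carry Runx2 siRNA and were not used. Cultures without forskolin, or without any siRNA, were not analysed here, so these signals describe a stimulated and transfected state and not what forskolin changed.

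Of 31099 probe sets on the array, 20826 had a single gene symbol and were not array controls, and these stood for 14217 genes. Genes were ordered by the mean MAS5 signal of both arrays, a background-corrected brightness on a linear scale, with a gene's brightest probe set standing for it. A mean below 50 was called near background. Pairs of values are signals on the first and the second control array. Signals of different probe sets also differ by how well their probes bind. A rank is thus a place in the order of brightness and not a measure of transcripts per cell, and with 2 arrays no test was made between genes. On that scale the median gene had a mean signal of 345, 75% of genes lay below 1112, and 1910 genes (13.4%) reached 2000 or more. Near background lay 5583 probe sets (26.8%) and 3501 genes (24.6%). The arrays correlated at r = 0.984 over the 20826 probe sets, on log2(signal + 16), a correlation across probe sets that share the same arrays and are not replicates.

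Granulosa cells surround the oocyte in the follicle. Under follicle-stimulating hormone they turn androgen into estradiol, and after the luteinizing hormone surge, which acts through cAMP, they become the luteal cells that make progesterone. Progesterone synthesis starts when cholesterol is carried into the mitochondrion and its side chain is cut off, and the resulting pregnenolone is then oxidised. Forskolin raises cAMP directly and is used in culture in place of the hormone.

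The steps from cholesterol to progesterone were among the brightest signals of the cells. Star, the carrier that brings cholesterol into the mitochondrion, read 14279 and 15538 and ranked 10 of 14217 genes. Hsd3b1, the dehydrogenase that makes progesterone from pregnenolone, read 13264 and 15353 at rank 13. Cyp11a1, the side-chain cleavage enzyme, read 12150 and 10223 at rank 62, and Fdx1, the ferredoxin that passes electrons to it, 11397 and 11585 at rank 55. The arrays lay at most 1.19-fold apart for these genes, at Cyp11a1, and which culture was higher differed from gene to gene. The second Star probe set read 11720 and 12379, so both Star probe sets were bright, whereas the second Fdx1 probe set read 268 and 350. Further from the top were the sterol transfer protein Npc2 (8242 and 7671), the outer mitochondrial membrane protein Tspo (4050 and 4866), the electron donor Por (1438 and 1139) and the sterol carrier Stard3 (1180 and 1143). All 8 measured genes of the progesterone list lay above 50, where 24.6% of all genes were below it, and 6 of the 8 were at 2000 or more, where 13.4% of all genes were. Hsd3b2, Fdxr and Npc1 of this list were not analysed here.

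Sequence just before the start of these genes is shown to let CpG-poor and CpG-rich promoters of 1 pathway be seen side by side. Each run holds the 250 bases before the annotated start from RefSeq on build GRCr8, read 5′ to 3′ on the gene's strand, with every CpG dinucleotide in capitals. Cyp11a1 (chr8:67318415-67318664, forward strand), Hsd3b1 (chr2:188864695-188864944, reverse strand) and Akr1c3 (chr17:71020634-71020883, forward strand) are steroid genes with few CpG. Fdx1 (chr8:61183646-61183895, reverse strand) serves the same reaction as Cyp11a1. Inha (chr9:84442859-84443108, forward strand) and Lhcgr (chr6:11415165-11415414, forward strand) encode an inhibin subunit and the luteinizing hormone receptor. Cyp21a1 (chr20:4028141-4028390, forward strand) encodes an adrenal steroid hydroxylase whose signal was near background.
Cyp11a1: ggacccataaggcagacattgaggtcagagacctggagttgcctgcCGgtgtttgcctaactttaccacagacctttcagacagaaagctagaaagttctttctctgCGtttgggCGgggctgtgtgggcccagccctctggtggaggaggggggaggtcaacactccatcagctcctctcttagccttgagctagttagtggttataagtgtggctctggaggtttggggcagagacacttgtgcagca
Fdx1: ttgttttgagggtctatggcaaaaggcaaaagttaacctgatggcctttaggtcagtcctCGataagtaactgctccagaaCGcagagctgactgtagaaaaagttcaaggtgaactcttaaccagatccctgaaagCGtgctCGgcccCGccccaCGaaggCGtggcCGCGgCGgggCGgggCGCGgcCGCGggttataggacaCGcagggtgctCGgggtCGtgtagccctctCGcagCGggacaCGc
Hsd3b1: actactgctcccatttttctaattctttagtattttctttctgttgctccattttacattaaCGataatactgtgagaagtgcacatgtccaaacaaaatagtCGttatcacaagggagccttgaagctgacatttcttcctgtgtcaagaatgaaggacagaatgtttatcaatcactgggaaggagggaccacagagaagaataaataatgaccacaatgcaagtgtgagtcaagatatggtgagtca
Inha: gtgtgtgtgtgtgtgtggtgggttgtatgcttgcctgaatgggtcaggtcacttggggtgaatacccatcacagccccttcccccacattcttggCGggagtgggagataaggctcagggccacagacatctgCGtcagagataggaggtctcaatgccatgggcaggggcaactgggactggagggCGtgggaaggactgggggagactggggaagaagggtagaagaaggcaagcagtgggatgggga
Lhcgr: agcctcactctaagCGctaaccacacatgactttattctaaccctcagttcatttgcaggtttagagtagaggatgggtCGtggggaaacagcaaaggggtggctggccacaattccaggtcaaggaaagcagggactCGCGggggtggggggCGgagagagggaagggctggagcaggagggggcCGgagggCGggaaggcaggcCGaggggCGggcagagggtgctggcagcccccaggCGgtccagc
Akr1c3: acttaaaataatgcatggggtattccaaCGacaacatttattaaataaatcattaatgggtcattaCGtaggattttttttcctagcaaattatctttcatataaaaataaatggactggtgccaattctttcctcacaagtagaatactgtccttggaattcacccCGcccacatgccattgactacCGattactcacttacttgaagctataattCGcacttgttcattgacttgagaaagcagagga
Cyp21a1: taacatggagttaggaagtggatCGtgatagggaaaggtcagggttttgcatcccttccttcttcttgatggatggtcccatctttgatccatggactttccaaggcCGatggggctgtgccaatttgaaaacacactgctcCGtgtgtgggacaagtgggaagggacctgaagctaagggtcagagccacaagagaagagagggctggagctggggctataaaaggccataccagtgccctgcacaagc

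Counted in these 250 bases, Cyp11a1 held 3 CpG, Hsd3b1 2, Inha 3 and Akr1c3 5. Fdx1 held 21, against 3 for the enzyme it serves. Lhcgr held 10 and Cyp21a1 held 3. Bright steroid genes and a near-background one thus both stood beside CpG-poor sequence. Star and Scarb1 had no entry among these promoters.

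Over the 11700 genes with a promoter, CpG number rose with signal class. The median was 6 CpG for genes below 50, 15 from 50 to under 500, 17 from 500 to under 2000 and 18 at 2000 or more. Under 8 CpG were found in 58.4% of the genes near background (n = 2744) and in 10.7% of those at 2000 or more (n = 1623). Of the 100 brightest genes with a promoter, 16 held under 8 CpG, against 26.9% of all 11700. By rank they were Inhba, Hsd3b1, Inha, Ifi27, Aldh1a1, Bst2, Rpl6, Akr1c3, Cyp11a1, Mgst1, Aldoa, Ogn, Tceal9, Sgk1, Rpl24 and Gsta1. Granulosa markers had a median of 3 CpG over 7 promoters and the reference genes of most cells 18.5 over 12. Immune markers had 3.5 over 10 and genes restricted to other tissues 4 over 23, so few CpG were not particular to granulosa markers. The longer follicular granulosa list had 9 over 19. Cholesterol supply genes had a median of 17 over 19 promoters, close to that of all bright genes, and the 6 promoters of the progesterone list had 18.5. These are descriptions across genes, which share chromosome and base composition, and no test was made.

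**Figure D1:**
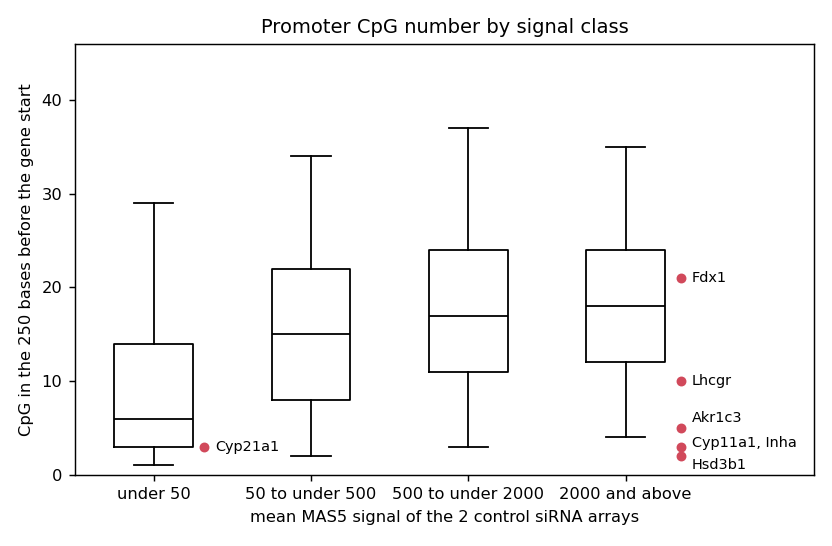
Number of CpG dinucleotides in the 250 bases before the gene start (vertical axis) for genes in 4 classes of mean signal on the control arrays (horizontal axis). Boxes span the quartiles with the median as a line, whiskers reach the 5th and 95th percentiles, and red points mark the genes whose sequences are printed: Fdx1 with 21 CpG lies above the median of 18 for the brightest class, and Cyp11a1, Inha, Hsd3b1 and Akr1c3 with 2 to 5 lie below its box.

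Short motifs were searched on both strands of the same 250 bases. GGGCGG, the GC box, which itself holds a CpG, was present in 64.9% of promoters at 2000 or more and in 35.3% near background. The share over all 11700 genes with a promoter was 54.2%. TGACG, the core of a cAMP response element, also holding a CpG, was present in 36.3% and 15.4%, against 25.8% of all 11700. TATAAA was present in 7.64% and 13.99%, against 8.06%. AAGGTCA, a core that Nr5a factors bind, was present in 2.09% and 4.05%, against 2.76%. CCAAT was present in 37.8% and 33.2%, against 35.1%. Among the printed sequences TGACG was found in Inha, on the opposite strand as cgtca, and in none of the other 6. GGGCGG was found in Cyp11a1, Fdx1, Lhcgr and Akr1c3, and TATAAA and CCAAT in Akr1c3 and in Cyp21a1. AAGGTCA was found in Cyp21a1, whose gene was near background. A match is only a run of letters in this window.

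Downstream of progesterone, the enzyme that inactivates it was bright. Akr1c3, the rat 20-alpha-hydroxysteroid dehydrogenase also called Akr1c18, read 11137 and 11625 at rank 57, and Akr1c14, a related 3-alpha-hydroxysteroid dehydrogenase, 5989 and 8444. Hsd17b7, which acts in both estradiol and cholesterol synthesis, read 8333 and 5146. Cyp19a1, the aromatase that makes estradiol, read 2249 and 1185, and its other probe sets, at 1939 and 1092 and at 1505 and 913, were also higher on the first array. Hsd17b1, which converts estrone to estradiol, read 1043 and 415, a fold of 2.52, so the estrogen enzymes lay higher on the first array. In contrast Cyp1b1, which hydroxylates estradiol, read 831 and 2117.

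Enzymes that mark other steroid organs were dim. Cyp17a1, which makes androgen in theca cells, read 22.7 and 15.98. Cyp21a1 (4.69 and 6.17) and Cyp11b1 (1.68 and 4.82) make corticosteroids in the adrenal, and Hsd17b3 (18.5 and 27.4) makes testosterone in the testis. With Hsd17b2 these were the 5 of 18 measured genes of the steroid conversion list below 50, or 27.8%, near the 24.6% of all genes. The list therefore held both extremes, with 7 of 18 at 2000 or more (38.9%, against 13.4% of all genes). Sult1e1, which sulfates estrogen, was just above the limit at 66.7 and 52.3.

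**Figure D2:**
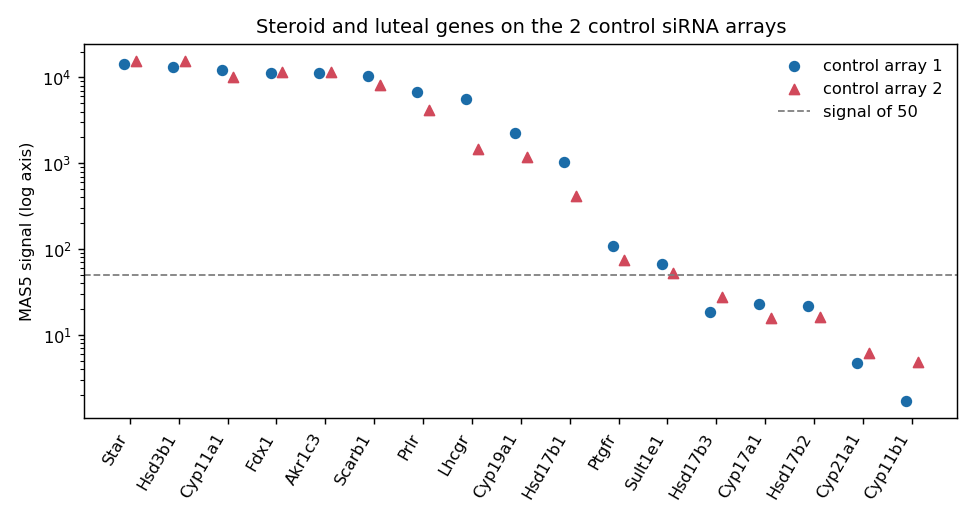
MAS5 signal (vertical log axis) of 17 steroid and luteal genes (horizontal axis) on the first (circles) and second (triangles) control array, with the limit of 50 dashed. Star, Hsd3b1, Cyp11a1, Fdx1 and Akr1c3 lie at 10223 or more on both arrays, Lhcgr shows a wide gap at 5593 and 1484, and Cyp17a1, Cyp21a1 and Cyp11b1 lie below 50 on both.

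Cholesterol for these steps comes from high-density lipoprotein, from stored esters and from new synthesis, and genes of all of these routes were above background. Scarb1, the receptor that takes cholesterol from high-density lipoprotein, read 10287 and 8153, with a second probe set at 9173 and 8270. Soat1, which makes the stored esters, read 6966 and 6314, and Plin2, which coats lipid droplets, 3823 and 4814. In the mevalonate route the isomerase Idi1 read 13502 and 14562, Fdps 13468 and 11524, Cyp51 11549 and 10535 and Dhcr7 10029 and 8898. Insig1, the sterol sensor that holds back this route, was also bright at 10475 and 7013. Of 26 measured genes 0 lay below 50, where 24.6% of all genes did, and 13 were at 2000 or more (50%, against 13.4%). Of the 26, 18 were higher on the first array, where 45% of all genes were. Lipe, the lipase that frees stored cholesterol, read 185 and 206, and Lcat, an esterifying enzyme of plasma, 205 and 139, the dimmest of the list. The widest gap was Apoe, the lipid carrier, at 1203 and 2571, and Mvd, a step of the mevalonate route, read 1913 and 1047. The second Apoe probe set was near background at 10.1 and 1.53.

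The luteal genes spanned most of the scale, and the receptor of luteinizing hormone was the member that differed most between the arrays. Lhcgr read 5593 and 1484, a fold of 3.77, and its second probe set 2524 and 547, a fold of 4.61. Prlr, the prolactin receptor, read 6828 and 4231, with its other probe sets at 4035 and 2195 and at 368 and 195. For both receptors all probe sets were higher on the first array, and 1 array each allows no test. Other luteal genes were bright on both arrays, among them Cited2, a cofactor of transcription (11265 and 12654), Cdkn1b, the cell cycle inhibitor p27 (9840 and 9501), and Timp1, an inhibitor of matrix proteases (4562 and 5436). Sfrp4, a secreted modulator of Wnt signalling, read 601 and 271. Ptgfr, the receptor through which prostaglandin F2-alpha ends luteal life, was dim at 109 and 73.9, with a second probe set at 16.1 and 15.9. The oxytocin receptor Oxtr, at 1.94 and 1.77, was the 1 of 21 luteal genes below 50 (4.76%, against 24.6% of all genes). At 2000 or more were 13 of 21 (61.9%, against 13.4%).

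Genes of the growing follicle were still bright. Gja1, the gap junction protein connexin 43, ranked 2 of all genes at 15938 and 17728. Inhba, which encodes the subunit shared by activin A and inhibin A, read 16320 and 14488, and Inha, the inhibin alpha subunit, 13413 and 12500. The second Inhba probe set read 2237 and 1303. The third subunit, Inhbb, read 2174 and 1373. Fst, which binds activin, read 6051 and 3970. Gja1, Inhba and Inha were thus among the first 30 genes, as Star was, and Inhbb and Fst were further down. Among factors that mark the cells, Foxl2, which maintains ovarian fate, read 5311 and 5103, Nr5a2 2872 and 2342 and Gata4 2136 and 2096. Amh, the hormone of small follicles, read 60.9 and 68.0, Esr2, the estrogen receptor of granulosa cells, 64.4 and 63.0, and Nr0b1, a repressor of Nr5a1, 72.8 and 60.5, all just above the limit. Grem1, which binds bone morphogenetic proteins, was the 1 of 29 measured follicular genes below 50 (3.45%, against 24.6%), at 15.6 and 10.4. Of the 29, 23 were higher on the first array, against 45% of all genes. Probe sets of a gene could disagree: the third Gja1 probe set read 49.7 and 51.0. Among 2499 genes with several probe sets and a brightest one of at least 500, 426 (17.0%) also had one below 50. Fshr, the follicle-stimulating hormone receptor, was not analysed here.

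Ovulatory genes, which the luteinizing hormone surge switches on for hours, ranged from the top to the bottom of the scale after 48 h. Rgs2, a regulator that shortens G protein signals, read 12214 and 14657 at rank 22. Hif1a, the oxygen-sensing factor, read 11870 and 11867, Egr1 10123 and 11745, and the protease Ctsl 7580 and 8591. Vcan, the versican of the cumulus matrix, read 4745 and 5112, and Adamts1, the protease that cuts it, 3583 and 3599. Hif1a, Vcan and Adamts1 were nearly equal on both arrays. Rgs2, Egr1 and Ctsl were higher on the second array, by 1.20-fold for Rgs2 and 1.13-fold for Ctsl. The median gene at 2000 or more lay 1.07-fold apart. The EGF-like ligands were lower and less alike, with Areg at 697 and 1065, Ereg at 190 and 519 and Btc at 35.4 and 87.4. Ptgs2, the inducible prostaglandin synthase, read 243 and 399, and Tnfaip6, which links hyaluronan, 416 and 643. Pgr, the progesterone receptor (34.3 and 29.3), Has2, the hyaluronan synthase (42.3 and 45.4), and the vasoconstrictor Edn2 (6.23 and 8.94) were the 3 of 29 below 50 (10.3%, against 24.6%). Of the 29, 21 were higher on the second array, against 55% of all genes. Il6 (34.5 and 125), Ereg and Btc lay at least 2-fold apart in that direction, and Snap25 and Hpgd, which degrades prostaglandins, the other way (Hpgd 281 and 97.5). Ptx3 and Runx2 were not analysed here.

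Among 59 measured hormone and growth factor receptors, 15 lay below 50 (25.4%, against 24.6% of all genes) and 8 at 2000 or more (13.6%, against 13.4%). As a group the receptors thus sat at the background shares. Gnrhr, the receptor of gonadotropin-releasing hormone, was the brightest of them at 8648 and 7604, and its second probe set read 6086 and 4666. Pgrmc1, a membrane progesterone-binding protein, followed at 8138 and 7809, then Prlr, the type I TGF-beta receptor Tgfbr1 (4179 and 3566) and Igf2r (3716 and 3551). Igf1r, which carries insulin-like growth factor 1 signals and insulin at high dose, read 3054 and 3098, against 371 and 322 for the insulin receptor Insr. The EGF receptor Egfr read 1834 and 1535, while its partners Erbb3 (29.2 and 44.7) and Erbb4 (15.1 and 6.20) were near background. So was Esr1, at 27.98 and 26.97, as were the thyrotropin receptor Tshr (6.23 and 9.11) and the vitamin D receptor Vdr (22.4 and 30.2). The prostaglandin E receptor Ptger3 read 67.8 and 337, a fold of 4.98 and the widest gap among receptors above the limit, wider than that of Lhcgr, with a second probe set at 49.6 and 126.

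**Figure D3:**
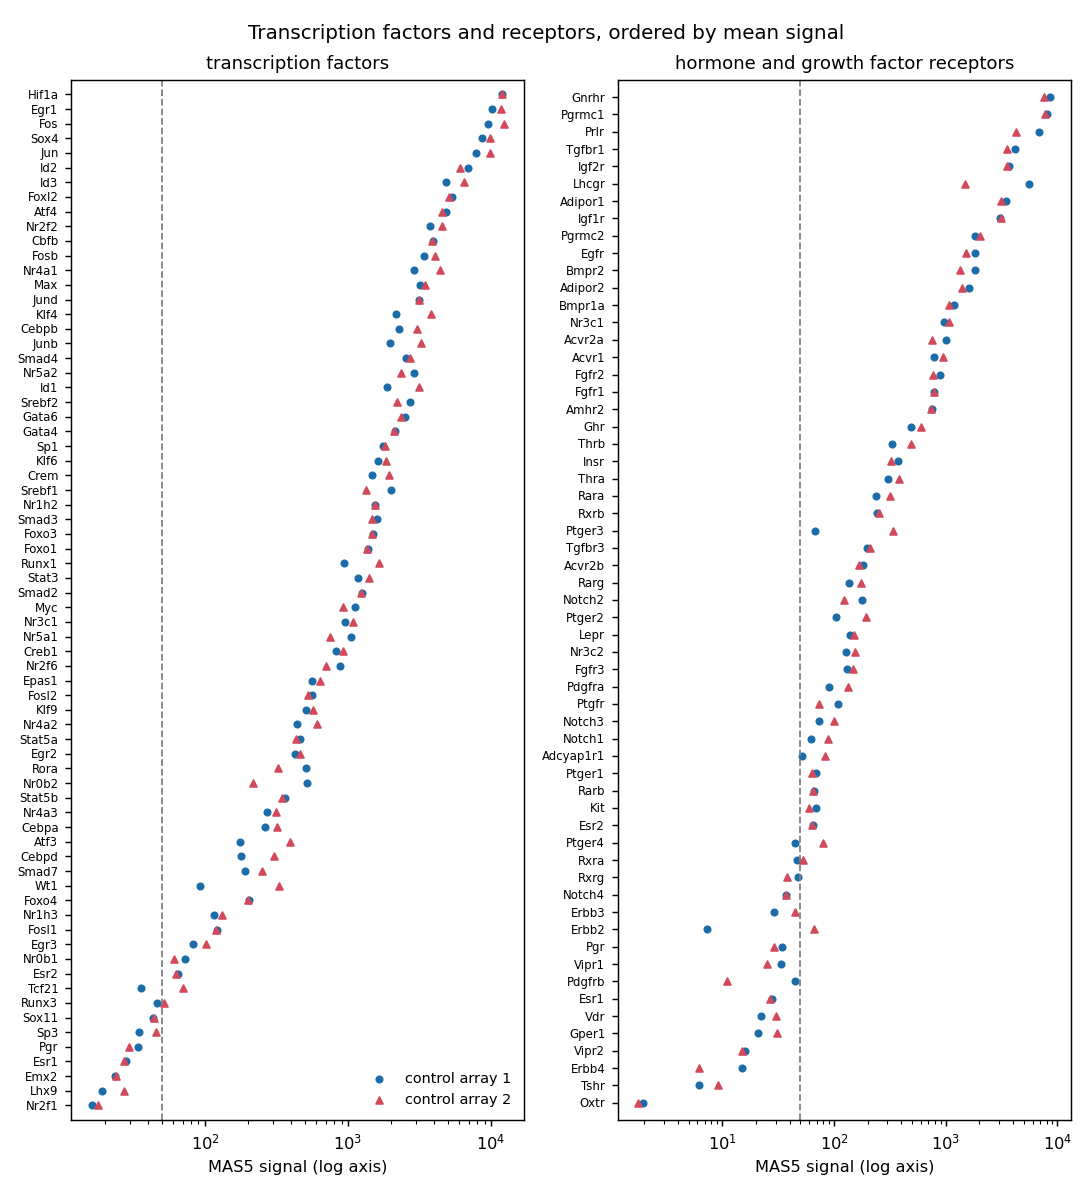
MAS5 signal (horizontal log axis) of the 70 measured transcription factors (left) and 59 measured receptors (right), ordered by mean, on the first (circles) and second (triangles) control array, with the limit of 50 dashed. The ends of the factor list are Hif1a near 11870 and Nr2f1 near background, those of the receptor list Gnrhr at 8648 and 7604 and Oxtr below 2, and Lhcgr and Ptger3 show wide gaps in opposite directions.

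The transcription factor list was chosen with earlier results of these data known, so its shares do not describe such factors as a class. Of its 70 measured members 8 lay below 50 (11.4%, against 24.6%) and 24 at 2000 or more (34.3%, against 13.4%). The median factor lay at percentile 75.4 of all genes, but at 51.0 when a gene's median probe set stood for it. Immediate early factors, which cAMP and growth factors induce, ranged from bright to dim. Egr1 was given above, Fos read 9536 and 12259, Jun 7855 and 9754, Fosb 3408 and 4039 and Nr4a1 2899 and 4374. The second Fos probe set was near background at 5.58 and 7.10. Their relatives were lower, with Nr4a2 at 440 and 607, Egr2 at 428 and 461, Nr4a3 at 273 and 313, Fosl1 at 121 and 118 and Egr3 at 82.6 and 101. Sox4 read 8603 and 9855 by its brightest probe set, and the dimmest of its 7 read 73.8 and 113. The dimerisation inhibitors Id2 (6883 and 6046) and Id3 (4801 and 6502) followed. Nr5a1, the steroidogenic factor SF-1, read 1045 and 754, and Nr2f2, a nuclear receptor also used here as a theca marker, 3711 and 4536. Runx1 read 933 and 1653, Cbfb, the partner of Runx proteins, 3945 and 3886, and Runx3 46.2 and 52.1. Besides Pgr and Esr1, the factors below 50 were Runx3, Sox11, Sp3, Emx2, Lhx9 and Nr2f1. Runx2 and Sox9 were not analysed here.

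Genes of cAMP signalling, which forskolin feeds, lay near the shares of all genes. Gnas, the stimulatory G protein, read 8453 and 8290, and the protein kinase A subunits Prkar2b 7912 and 8346, Prkar1a 6068 and 5866 and Prkacb 1967 and 2089, alike on both arrays. Of the adenylyl cyclases, the enzymes that make cAMP, Adcy6 was the brightest at 1346 and 1210, then Adcy9 at 502 and 366, while Adcy5, Adcy8 and Adcy4 were below 50 on both arrays. Among phosphodiesterases, which degrade cAMP, Pde8a read 2033 and 1706, Pde4b 600 and 955 and Pde4d 469 and 420. Crem, a cAMP-responsive factor, read 1480 and 1944. In all 11 of 42 lay below 50 (26.2%, against 24.6%) and 6 at 2000 or more (14.3%, against 13.4%). Of the 42, 28 were higher on the second array, against 55% of all genes. Of the 31 at 50 or more 0 lay 2-fold apart, against 2.87% of all such genes. With so small a share, 0 of 31 does not set the list apart.

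Matrix genes and proteases ranged widely, with 11 of 60 below 50 (18.3%, against 24.6%) and 13 at 2000 or more (21.7%, against 13.4%). Cathepsins B (Ctsb, 6780 and 6979), D (Ctsd, 5163 and 4449) and L were the bright proteases of the lysosome. Serpine2, an inhibitor of plasminogen activators, read 5828 and 6016, the membrane collagenase Mmp14 4929 and 5373, and Sparc, a calcium-binding matrix protein, 3780 and 5154. Collagens were uneven. Among fibrillar chains Col5a2 read 1695 and 2562, Col5a1 837 and 976 and Col3a1 719 and 1275, while Col1a1 (82.5 and 117) and Col1a2 (92.3 and 117) were dim. The basement membrane collagens Col4a1 (181 and 237) and Col4a2 (180 and 306) lay between. Laminin subunits spread as widely, from Lamb1 at 2007 and 2549 and Lamc1 at 1357 and 1435 through Lama4 at 269 and 195 to Lama5 at 29.6 and 28.1. Fibronectin, Fn1, had the widest gap among the 49 matrix genes at 50 or more, 402 and 1847. Of these 49, 6 were at least 2-fold higher on the second array, against 2.34% of all genes at 50 or more. On the first array 0 were, against 0.532%, too small a share for this 0 to set the list apart. Below 50 lay Mmp9 (4.55 and 17.7), Postn (21.5 and 9.05), Lama2 (22.7 and 3.88) and Vtn (2.09 and 1.45).

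Secreted factors also lay near the shares of all genes, with 7 of 43 at 2000 or more (16.3%, against 13.4%). After Inhba and Inha came Igfbp5, which binds insulin-like growth factors (8070 and 8597), and Bmp2, a bone morphogenetic protein (4707 and 5875). Igf1 read 2079 and 1968, against 39.0 and 75.05 for Igf2, and the angiogenic factor Vegfa 2488 and 1908. Apln, the peptide apelin, read 1201 and 548. Pituitary hormones were mostly dim: Prl read 11.3 and 12.5, Tshb 18.9 and 17.7 and Fshb 37.7 and 41.6, whereas Lhb read 92.7 and 125 and Cga 80.3 and 74.8. In all 11 of 43 were below 50 (25.6%, against 24.6%), among them the oocyte factors Gdf9 (42.5 and 31.7) and Bmp15 (24.9 and 11.6).

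Cell cycle genes ranged widely within each kind. The brightest was the inhibitor Cdkn1b, given above, Cdk4 read 4572 and 5081, Pcna, the sliding clamp of replication, 4653 and 4684 and Cdkn1a, the inhibitor p21, 2363 and 1860, whereas the inhibitor Cdkn2a read 12.8 and 26.2. Of the cyclins, Ccnd2 read 1888 and 1853 and Ccnd3 673 and 882, while Ccnd1 lay near background at 15.6 and 22.4. Ccne1, a cyclin of S phase entry, read 76.1 and 63.4. Of mitotic genes Cdk1 stood at 407 and 581, Ccnb1 at 118 and 155, Plk1 at 57.2 and 113 and the proliferation antigen Mki67 at 41.5 and 110. Of 34 measured genes 4 lay below 50 (11.8%, against 24.6%) and 26 were higher on the second array, against 55% of all genes.

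The genes listed for antioxidant defence and glutathione conjugation were mostly bright. Of the 31 measured, 21 were at 2000 or more (67.7%, against 13.4% of all genes) and 2 below 50 (6.45%, against 24.6%). The disulfide reductant Txn1 read 12290 and 12992, the glutathione transferase Gsta4 12204 and 12303 and the superoxide dismutase Sod1 10606 and 11170. Mgst1, Gstp1, Gsta1 and Nqo1 lay between 8414 and 11567 on both arrays. Metallothionein Mt2A, which binds zinc and copper, read 10049 and 6643. Catalase, Cat, read 3867 and 2582, and the dim members were Gsta3 (16.2 and 22.1) and Gstm3 (6.25 and 7.47). Of the 29 above the limit 0 lay 2-fold apart, against 2.87% of all such genes. That share is too small for this 0 to set the list apart.

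Yardsticks at both ends place these values. Of 14 measured reference genes of most cells 0 lay below 50 and 13 reached 2000 or more (92.9%, against 13.4% of all genes). They ran from the elongation factor Eef1a1 (14437 and 15935) down to the TATA-binding protein Tbp (711 and 777). Of 29 measured genes restricted to other tissues 19 lay below 50 (65.5%, against 24.6%), and 0 reached 2000. In that list the brightest was Snap25, a protein of vesicle fusion that the ovulatory list also holds, at 709 and 241. Next came Krt10, Ttr, Syp and Mbp, at means of 127 to 260. Dim signals were hard to order: Ins1, an insulin gene of the pancreas, read 94.3 and 94.0, above Esr2 and Amh. The genes just inside and outside the limit were Sparcl1 (52.3 and 47.7), Nfib (40.0 and 59.9) and Drd2 (40.5 and 59.5) below it and Hand1 (53.8 and 46.2), Pla2g5 (47.4 and 52.7) and Slc44a4 (49.3 and 50.8) above it. For 779 genes (5.48%) the arrays fell on opposite sides of 50.

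**Figure D4:**
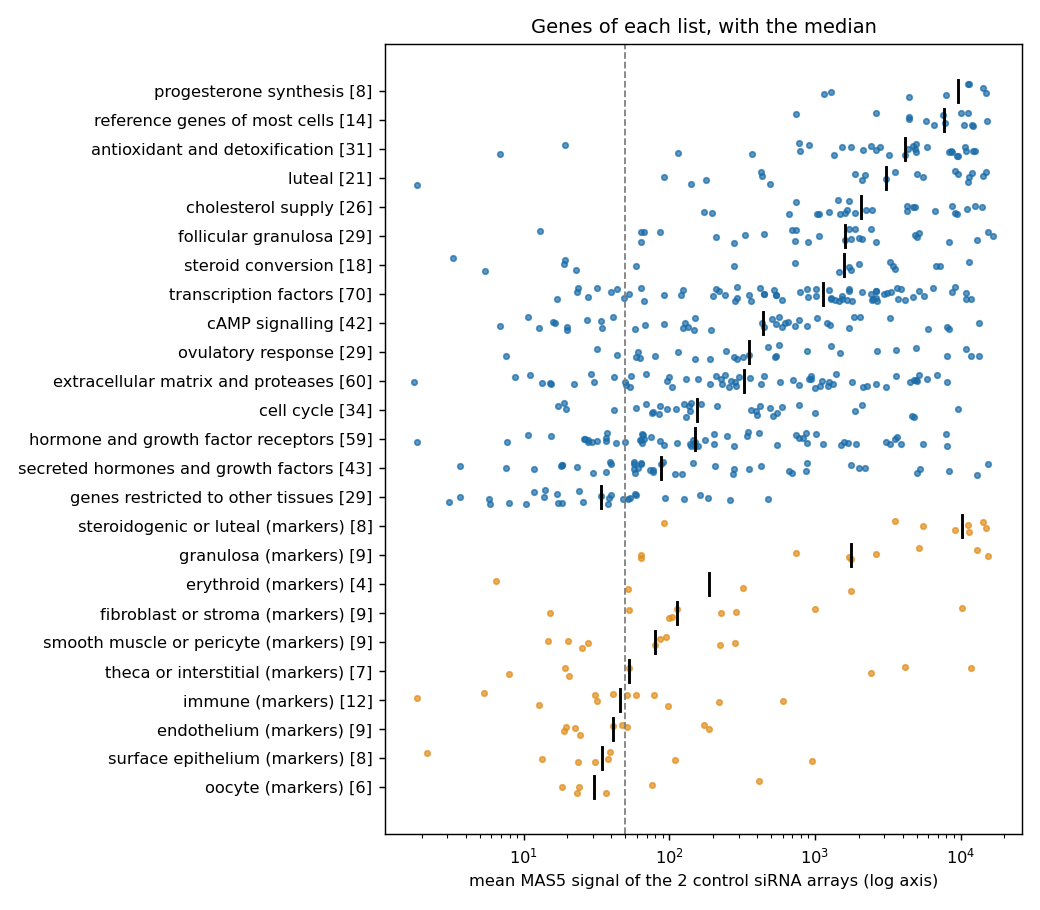
Mean MAS5 signal of the 2 control arrays (horizontal log axis) for every measured gene of each list (rows, number of genes in brackets), with the median as a black bar and the limit of 50 dashed. Blue rows are gene programmes and orange rows are cell type markers; medians run from 9571 for progesterone synthesis to 33.8 for genes of other tissues, and from 10203 for steroidogenic markers to 30.6 for oocyte markers.

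The brightest signals overall mixed housekeeping and granulosa genes. Rank 1 was COX2, here the mitochondrially encoded subunit of cytochrome c oxidase and not the prostaglandin synthase of that name, at 17362 and 19702, and rank 5 its partner COX1 at 14789 and 16934. Ribosomal proteins filled 8 of the first 30 and 31 of the first 100 places, led by Rps29 (16098 and 17523) and Rps23 (15066 and 16270). Prss35, a protease-like secreted protein of the ovary, ranked 4 at 15471 and 16919, between these housekeeping genes. Scd2, a fatty acid desaturase (15229 and 14361), the actin-binding peptide Tmsb4x (14340 and 15531), the histone H2az1 (13765 and 15379) and the tetraspanin Cd63 (13792 and 14618) were also among the first 30, as were the leucine zipper factor Tsc22d1, the mitochondrial chaperonin Hspe1, the membrane protein Itm2b and the actin-related subunit Arpc2.

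Signals were also read by cell type marker lists, chosen with earlier results of these data known. Star, Cyp11a1, Scarb1, Lhcgr and Akr1c3 were fixed beforehand, so these lists are no independent check of the label granulosa. Of 9 measured granulosa markers 0 lay below 50, with Amh and Esr2 just above it. Their summed signal was 43217 and 37855, most of it Inhba and Inha. Of 8 steroidogenic or luteal markers 0 lay below 50, with sums of 73648 and 66681. Endothelial markers summed to 545 and 628 with 6 of 9 below 50, immune markers to 965 and 1513 with 6 of 12, smooth muscle markers to 645 and 1068 with 4 of 9, and oocyte markers to 462 and 715 with 4 of 6. These counts stand against 24.6% of all genes. In the endothelial list Kdr (175 and 200) and Egfl7 (185 and 164) were the highest, and in the immune list Cd14 (456 and 758) and Lyz2 (134 and 307). The markers Pecam1 (15.9 and 23.2), Ptprc (2.32 and 23.1) and Cyp17a1 were near background on both arrays. Zp2, a coat protein of the oocyte, read 323 and 498, apart from its list. Surface epithelium summed to 1203 and 1236 with 6 of 8 below 50, most of it Upk1b at 936 and 988. Theca and stromal lists had sums of 18571 and 18446 and of 11352 and 13005, with 3 of 7 and 1 of 9 below 50. In the theca list 3 of 7 were at 2000 or more (42.9%, against 13.4% of all genes): Aldh1a1, a retinal dehydrogenase (11787 and 11926), Nr2f2 and the peptidase Enpep (2964 and 1892). Most of the stromal sum was Ogn, the matrix protein osteoglycin, with 4 probe sets of 4261 to 10587. Next in the stromal list was Col3a1 (719 and 1275), while Dcn (185 and 388), Lum (148 and 307) and Col1a1 were lower. Of the 8 stromal markers at 50 or more 2, Dcn and Lum, were at least 2-fold higher on the second array. Of all such genes 2.34% were. Erythroid markers summed to 3107 and 1192, with 1 of 4 below 50. Most of it was Hbb, a beta globin chain, at 2593 and 943, and Alas2 read 447 and 199. Of the 3 at 50 or more these 2 were at least 2-fold higher on the first array, against 0.532% of all such genes. In RNA of whole cultures, fewer cells of a type and less RNA per cell cannot be told apart, and the part of such cells in these signals was not tested.

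The gap between the 2 arrays is the only measure of spread for the values above, and it leaves out how well different probe sets bind. Between the arrays the median gene lay 1.07-fold apart at 2000 or more, 1.09-fold from 500 to under 2000, 1.17-fold from 50 to under 500 and 1.61-fold below 50. Among probe sets at 50 or more, 418 (2.74%) lay at least 2-fold apart, 335 (2.2%) higher on the second array and 83 (0.545%) on the first. Of genes, 308 (2.87%) did, 251 (2.34%) and 57 (0.532%) in these directions. Of genes at 50 or more most thus differed by less than 2-fold, and Lhcgr, at 3.77-fold, belonged to the small share that was not.

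Among genes with a mean of at least 200, the largest folds were toward the second array, and several belonged to inflammatory genes. Lcn2, the iron-chelator carrier lipocalin 2, read 38.3 and 1730, Reg3g, an antibacterial lectin, 64.3 and 1974, and Ccl20, a chemokine, 50.7 and 1089. Nfkbiz, an inducible regulator of NF-kB targets, read 123 and 1086, Cxcl1, a neutrophil chemokine, 887 and 6219, Vcam1, an adhesion molecule, 335 and 2708, and Ddx60, an interferon-induced helicase, 288 and 1488. Hpx (74.98 and 657), Reg3b (63.3 and 386) and Tagln (47.9 and 399.7) completed the 10 largest, and Lcn2 and Tagln were below 50 on the first array, so their folds have no firm size. Toward the first array the folds were smaller, from 2.43 for Zfp385b to 3.91 for the stress cytokine Gdf15 (351 and 89.7). Lhcgr was next at 3.77, then the desaturase Scd (6211 and 2039), Snap25, Hbb, Cyp2t1, Chst1, Eml1 and Hsd17b1. Of the immune markers 8 of 12 were higher on the second array, against 55% of all genes, and of the 6 at 50 or more 1, Lyz2, was at least 2-fold higher there. Of 4 erythroid markers 3 were higher on the first array, against 45% of all genes. Their part in these differences was not tested. With 1 array each, none of these gaps was tested.

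**Figure D5:**
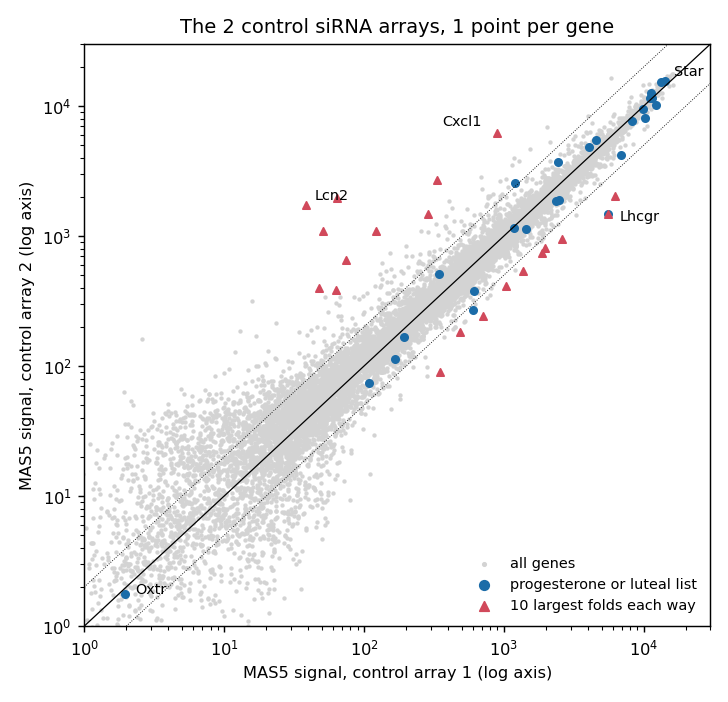
Signal of every gene on the first (horizontal log axis) and second (vertical log axis) control array; the solid line marks equality and dotted lines 2-fold, and signals under 1 lie outside the axes. Blue circles are genes of the progesterone and luteal lists, mostly between the dotted lines, with Lhcgr outside at 5593 and 1484, and red triangles are the 10 largest folds in each direction among genes with a mean of at least 200, reaching further toward the second array (Lcn2 at 38.3 and 1730).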

How the data were processed

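Total RNA of cultured rat granulosa cells was labelled with biotin and hybridised to 1-colour expression arrays, 1 per sample, per the labels' protocols. The authors deposited array intensity as linear MAS5 signals. MAS5 is named per the submitters' processing notes, and its version is not given in the sources used here. Both arrays have a mean of 500 once 2% is trimmed from each end, which is a shared scaling and hides any difference in total RNA. No detection calls were used. The limit of 50 is part of how genes were chosen and is no detection threshold.

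Of 31099 probe sets, 57 were array controls, 9780 had no symbol and 436 several, and all of these were left out. Gene identifiers of 20758 probe sets were found in RefSeq's rat gene table of assembly GRCr8, which served for names, 68 were not, and 0 symbols changed. The brightest probe set by mean of both arrays stood for a gene. There were 2 samples of 1 group and no test between groups, and p-values were not computed. Their small number limits the precision. The members of this account and its 25 gene lists (15 programmes, 10 cell type markers) were chosen with earlier results of these data known. Named were 5 fixed markers, the brightest 30 genes, up to 10 brightest, 6 members below 50 and 3 largest folds of each list, the 3 genes either side of 50 and the 10 largest folds each way among genes with a mean of at least 200. Names outside this rule (such as gene families and Y-linked genes) were chosen after their values were seen. Only those the text needs are printed.

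Promoters were the 250 bases before the start in the RefSeq table (11700 genes matched by identifier, 2517 not). Python 3.11.15 with pandas 2.3.3 was used, the counting code was tested on simulated data, and alternatives were other limits, quantile normalization, the geometric mean, each array alone and the median probe set.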

Additional observations from a re-analysis of the deposited data

How the results depend on the processing

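No paired analysis was possible because 1 group of arrays was used and no test was fitted. A limit of 25 in place of 50 gave 3458 probe sets, 2075 genes and 51 of 447 listed genes near background, against 5583, 3501 and 85. A limit of 100 gave 132 listed genes. With probe sets of several or no symbols included, 10347 were near background. Without a filter 2420 probe sets were at least 2-fold apart between the arrays, against 418 with it and 253 at a mean of at least 100. Leaving out either replicate gave 5365 to 5796 probe sets, 3345 to 3638 genes and 82 to 95 listed genes near background, and 12 to 13 of 25 lists with a median above percentile 50. Quantile normalization, the geometric mean, 16 added to both signals and the median probe set left each count within 1.5 times its value. The median probe set moved list medians by a median of 4.77 percentile points and by up to 24.4, for transcription factors, and each array alone by up to 6.60. With the median probe set 14 lists rose and 11 fell. Luteal fell from percentile 92.5 to 76.6, cholesterol supply from 87.1 to 75.6 and follicular granulosa from 82.8 to 74.8. The ovulatory list moved from percentile 50.5 to 48.5 with the geometric mean. Low signals limit what can be said: below 50 the arrays differed by a median of 1.61-fold, and MAS5 values there do not separate a dim transcript from none.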

Other observations

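Whole gene families, grouped by the start of their symbols after the values were seen, separated along the scale. Of 48 ribosomal protein genes 38 were at 2000 or more (against 13.4% of all genes), with a median of 10831. Below 50 lay 2 of them: Rpl3l, a paralogue known from muscle, at 7.20 and 9.61, and Rpl30 at 38.6 and 58.6. Subunits of the respiratory chain and of ATP synthase were bright. At 2000 or more, where 13.4% of all genes lay, were 31 of 34 complex I genes, 7 of 7 complex III genes and 14 of 15 ATP synthase genes. Of 36 proteasome subunits 26 were, and the dimmest, at a mean of 671, was Psmb8, a subunit of the immunoproteasome. At the other end, 21 of 24 Hox factors, 14 of 16 GABA receptor subunits, 17 of 18 placental prolactin relatives, 10 of 10 taste receptors, 9 of 9 UDP-glucuronosyltransferases and 11 of 12 odorant receptors lay below 50, where 24.6% of all genes did. Keratins were below 50 in 19 of 25 and cytochromes P450 of families 2 to 4, known for drug metabolism, in 27 of 39. Potassium channel genes were below 50 in 41 of 75, and the brightest of them, Kcne2, had a mean of 1243.

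Genes annotated on the Y chromosome differed widely on these arrays of cells from female animals. Uty, a histone demethylase gene of that chromosome, read 6211 and 6126 at rank 304, with a second probe set at 41.6 and 33.8. Sry (6.31 and 17.6), Tspy1 (1.497 and 0.773) and Eif2s3y (0.0871 and 0.172) were near background, and Eif2s3y ranked last of 14217 genes. The cause was not tested.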
